A study of Homo sapiens with 6 samples.

Results

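Accessibility was examined at 10 genes that encode Polycomb proteins, in EndoC-βH3 cells. EZH2, EZH1, SUZ12 and EED encode core subunits of Polycomb repressive complex 2 (PRC2), and RING1, RNF2, BMI1, CBX2, CBX7 and CBX8 encode subunits of Polycomb repressive complex 1 (PRC1). The genes were chosen by name and not by their measured values. Of the 108542 accessible regions in the table, 37 were theirs. A region was a promoter region of a gene if it overlapped the 2 kb on either side of a transcription start site (TSS) of one of its protein-coding transcripts, and 14 regions met this. Any other region was termed distal and given to the gene whose protein-coding TSS lay nearest to its midpoint, within 100 kb, which added 23 regions. The distal region nearest to its TSS lay 4820 bp away, at RING1, and the promoter region farthest from its TSS had its midpoint 1446 bp away, at EED.

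PRC2 methylates histone H3 at the lysine whose trimethylated form marks repressed genes, with EZH2 or EZH1 as the catalytic subunit and SUZ12 and EED as the subunits needed for activity. PRC1 ubiquitinates histone H2A through RING1 or RNF2, which pair with BMI1 or a related protein, and its CBX subunits bind the methylated histone H3. In beta cells these complexes are known for holding developmental genes and the CDKN2A locus in a repressed state, and the latter encodes inhibitors of the cell cycle.

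EndoC-βH3 is a human beta cell line derived from fetal pancreas and immortalised with the SV40 large T-antigen and telomerase, which can be excised by a tamoxifen-inducible Cre recombinase. All libraries came from this one line, labelled as wild type, with 3 senescent libraries from cells given 4-hydroxytamoxifen for 3 weeks and 3 non-senescent control libraries, each from 100000 cells. Libraries were made by ATAC-seq, in which a transposase places adapters in open DNA. The values are the mean signal of each region, which is the authors' mean of the normalised read counts over all libraries of both groups. No value of a single library was used, so the depth, the spread between libraries and the difference between the groups are not given, and no order of neighbouring values below was tested.

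As a check of the cell type, promoter regions were sought at 12 beta cell markers and were found at all 12, against 78.7% of all protein-coding genes. Of these 12, 6 were above the median of all genes in mean signal and 8 were above it per kb. Among all genes, 7746 of 15493 were above it on either scale, so the count by mean signal does not set these markers apart. Of 9 markers of endothelial, immune and fibroblast cells, 4 had a promoter region, while markers of alpha, delta and exocrine cells had one at 3 of 3, 2 of 2 and 3 of 4 genes. By mean signal, the alpha cell markers ranged from percentile 4.57 to 72.59, with the glucagon gene GCG at 5.82. The 3 exocrine markers with a promoter region ranged from percentile 3.47 to 90.04, and the highest was CPA1.

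All 10 Polycomb genes had at least 1 promoter region, as did 15493 (78.7%) of the 19676 protein-coding genes. In the following, the region of highest mean signal stands for the promoter of a gene, and since regions differ in width, genes are compared by mean signal per kb of region. By this scale the median of the 10 genes was 601 per kb, at percentile 43.8 of all genes, whose median was 686. Without the division by width their median was 910 against 840, at percentile 53.4. The 4 PRC2 genes lay close together, between 568 and 850 per kb. The 6 PRC1 genes were spread from 108 to 1882 per kb, and 4 of them were in the lowest 25% of all genes.

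**Figure D1:**
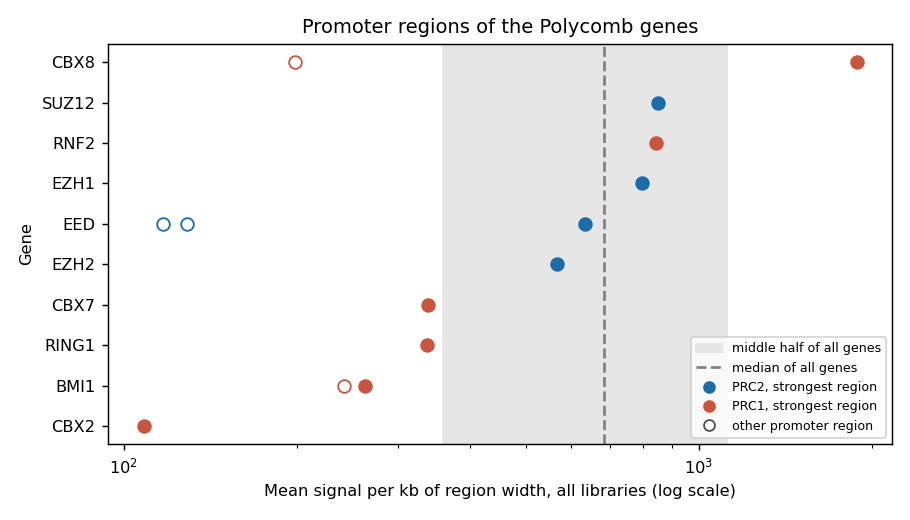
Mean signal per kb of each promoter region (horizontal, log scale) by gene (vertical), for PRC2 in blue and PRC1 in red, with the strongest region of a gene filled and its other promoter regions open. The band holds the middle 50% of all genes. The strongest regions of the 4 PRC2 genes sit inside it at 568 to 850, while the weaker regions of EED lie below it. For PRC1, the strongest region of RNF2 is inside the band, that of CBX8 is above it, and those of the other genes are below it.

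Promoter stretches of the PRC2 genes are shown for their motifs of E2F, the factor family that drives genes of the cell cycle. The stretches of EZH2, EZH1 and SUZ12 carry such a motif. That of EED does not, although the whole accessible promoter region of EED holds 1 match. The sequences are those of RefSeq on GRCh38.p14, from 250 bases before to 30 after the annotated TSS. Of the 10 genes, 8 had such an entry. EZH2 is on the minus strand of chr7:148884262-148884541, EZH1 on the minus strand of chr17:42745011-42745290, SUZ12 on the plus strand of chr17:31936757-31937036 and EED on the plus strand of chr11:86244503-86244782. Capitals mark matches on either strand to E2F (TTTCGCGC, TTTGGCGC, TTTCCCGC or TTTGCCGC), NRF1 (GCGCATGCG), ETS (CCGGAAGT), YY1 (AAGATGGCG), the CCAAT box (CCAAT) and the GC box (GGGCGG), and overlapping matches run together.
EZH2: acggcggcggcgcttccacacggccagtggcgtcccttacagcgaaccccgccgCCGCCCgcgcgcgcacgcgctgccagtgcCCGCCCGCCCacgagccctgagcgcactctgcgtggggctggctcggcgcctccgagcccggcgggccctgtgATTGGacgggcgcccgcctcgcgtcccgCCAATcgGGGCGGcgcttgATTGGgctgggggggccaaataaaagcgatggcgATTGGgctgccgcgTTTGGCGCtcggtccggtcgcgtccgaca
EZH1: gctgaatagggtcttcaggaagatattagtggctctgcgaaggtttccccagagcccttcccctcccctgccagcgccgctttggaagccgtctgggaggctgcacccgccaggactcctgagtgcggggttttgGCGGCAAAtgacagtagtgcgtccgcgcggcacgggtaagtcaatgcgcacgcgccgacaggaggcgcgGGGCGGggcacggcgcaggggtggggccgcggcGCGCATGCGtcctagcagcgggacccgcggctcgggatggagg
SUZ12: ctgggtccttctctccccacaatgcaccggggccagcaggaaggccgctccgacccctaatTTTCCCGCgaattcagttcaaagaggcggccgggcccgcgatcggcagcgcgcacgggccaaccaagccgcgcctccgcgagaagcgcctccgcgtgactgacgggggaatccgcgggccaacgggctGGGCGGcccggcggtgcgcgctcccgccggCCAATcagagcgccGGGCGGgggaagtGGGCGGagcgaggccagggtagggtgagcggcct
EED: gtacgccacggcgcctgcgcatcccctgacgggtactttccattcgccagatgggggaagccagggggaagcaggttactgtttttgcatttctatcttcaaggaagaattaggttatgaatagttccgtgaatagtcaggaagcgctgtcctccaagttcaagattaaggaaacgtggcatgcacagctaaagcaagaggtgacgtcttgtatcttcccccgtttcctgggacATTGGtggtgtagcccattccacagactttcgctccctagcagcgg
In these stretches EZH2 had an E2F match that began 1 base after the TSS, EZH1 had one on the reverse strand 115 bases before it, and SUZ12 had one 189 bases before it. The EED stretch had 0 E2F matches and a single CCAAT box. The RefSeq stretches of RNF2, RING1, BMI1 and CBX7, the other genes with an entry, also had 0 E2F matches. Of all 35116 RefSeq promoters cut to the same 280 bases, 3.14% held one of the E2F words, 33.6% a CCAAT box, 1.89% the NRF1 word and 44.1% a GC box.

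All 280 bases of each of these 4 stretches lay inside an accessible region. A second RefSeq promoter of EZH2, at 148883456 to 148883735, had 109 of its 280 bases in a region and 0 E2F matches. EZH2, the catalytic subunit found mainly in dividing cells, had 1 promoter region (chromosome 7, 148883626 to 148885358, hg38), with a mean signal of 983 or 568 per kb, and it held 5 of the 6 TSSs of the gene. This region was 1732 bp wide, at percentile 88.3 of all genes, with a GC content of 71.8%. EZH1, the paralogue that is also expressed in resting cells, had 1 promoter region (chromosome 17, 42744119 to 42745341) with 972 or 796 per kb, and it held all 7 TSSs. The 2 paralogues thus had nearly equal mean signal, at a ratio of EZH2 to EZH1 of 1.01, but a ratio of 0.713 per kb, since the EZH2 region is the wider one.

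SUZ12, which is needed for the stability of PRC2, had 1 promoter region (chromosome 17, 31936436 to 31937560) with 955 or 850 per kb, and it held both TSSs. This sequence is not unique in the genome. A copy with 93.7% identity over 100% of the region lies at the pseudogene SUZ12P1 (chromosome 17, 30731065 to 30732163), and the accessible region there had a mean signal of 703. How reads were divided between the copies was not tested, so the value of SUZ12 is less certain than those of the other PRC2 genes. EED, the subunit that binds the methyl mark, had 3 promoter regions. The strongest (chromosome 11, 86244184 to 86245545, at exon 1) had 864 or 635 per kb and held 6 of 8 TSSs. The other regions of EED, in introns, had mean signals of 118 (86202200 to 86203117) and 24.6 (86275057 to 86275267). With a GC content of 55.5%, the EED promoter was the poorest in GC of the 10, at percentile 15.5 of all genes.

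Among the PRC1 genes, the ubiquitin ligases differed. RNF2 had 1 promoter region (chromosome 1, 185044969 to 185046342) with 1159 or 844 per kb, and RING1 had 1 (chromosome 6, 33207831 to 33208713) with 298 or 337 per kb. The ratio of RNF2 to RING1 was 3.89 in mean signal and 2.50 per kb. The RING1 region also held the start of the microRNA gene MIR219A1. Its sequence has 5 copies on alternate contigs of hg38, and whether the reads were aligned to a reference with these contigs is not given in the sources used here.

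BMI1, the partner of RING1 and RNF2 that is known as a repressor of CDKN2A, was accessible downstream of its main TSS. Neither of its 2 promoter regions covered the canonical TSS. Among the 10 genes it was the only one whose strongest promoter region did not cover this TSS. The strongest region did not cover it at 22.1% of all genes with a promoter region. The first region (chromosome 10, 22321307 to 22321730) began 208 bp after the canonical TSS at 22321099, had its midpoint in the 5′ untranslated part of exon 1 and had a mean signal of 102. The stronger region (22325342 to 22326308) began 4243 bp after it, in an intron, with 254 or 263 per kb, and held the TSS of another BMI1 transcript. Of the 4 TSSs of BMI1, 1 was inside a region. The promoter of BMI1 at chr10:22320849-22321128 (plus strand, RefSeq on GRCh38.p14) is shown because 0 of its 280 bases lay in an accessible region of the table, although it carries 6 GC boxes, marked as above.
BMI1: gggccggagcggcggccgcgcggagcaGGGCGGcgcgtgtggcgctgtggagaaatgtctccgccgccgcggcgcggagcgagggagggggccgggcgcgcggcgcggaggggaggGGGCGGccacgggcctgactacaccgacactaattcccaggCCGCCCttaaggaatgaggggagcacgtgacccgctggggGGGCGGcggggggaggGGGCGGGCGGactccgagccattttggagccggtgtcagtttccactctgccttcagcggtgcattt
This stretch had a GC content of 73.9%, close to that of the RNF2 stretch of the same length (74.6%), which lay wholly in an accessible region. A second RefSeq promoter of BMI1, at 22321706 to 22321985, had a GC content of 91.4%, and 25 of its 280 bases lay in a region.

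The CBX genes held both ends of the range. CBX8 had the highest promoter signal of the 10 genes, with 1389 or 1882 per kb (chromosome 17, 79796784 to 79797522), at percentile 93.04 per kb. CBX2 had the lowest, with 93.1 or 108 per kb (79778141 to 79779000), at percentile 5.89. Their canonical TSSs are 18929 bp apart, and the ratio of CBX8 to CBX2 was 14.9 in mean signal and 17.4 per kb. Their GC contents were alike, at 73.3% for CBX8 and 72.8% for CBX2, as were the CpG dinucleotides, at 111.1 and 110.6 per kb. The CBX2 region began 7 bp before its canonical TSS and reached into the gene. CBX7, on chromosome 22 (39152344 to 39153639), had 438 or 339 per kb, so that CBX8 was 5.56 times as high per kb. CBX8 also had a second promoter region (79797869 to 79798427) with a mean signal of 111.

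**Figure D2:**
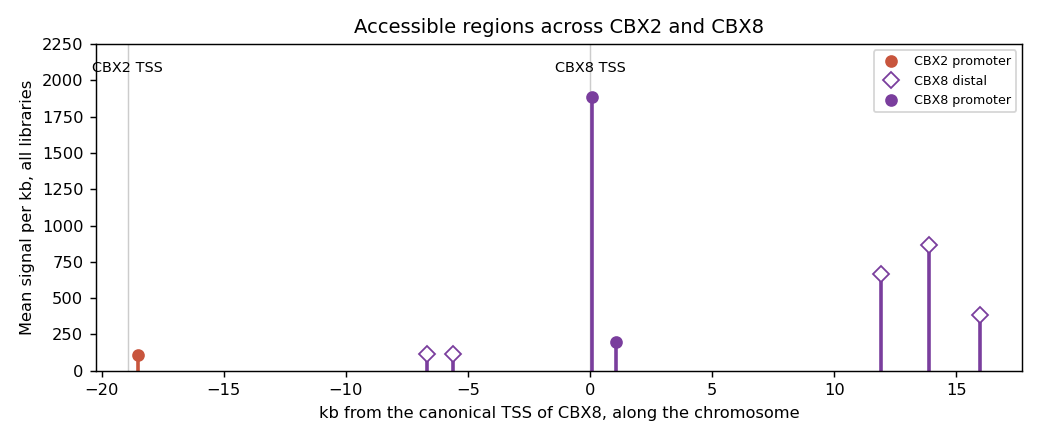
Mean signal per kb (vertical) of each accessible region of CBX2 and CBX8, by distance in kb from the canonical TSS of CBX8 (horizontal). Filled circles are promoter regions and open diamonds distal ones, coloured by the gene they were given to. The CBX8 promoter stands at 1882, CBX2 at 108, and a group of distal regions on the other side of CBX8 reaches 866.

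Between the canonical TSSs of CBX2 and CBX8 lay the midpoints of 3 regions, the CBX2 promoter included, and the strongest of these had a mean signal of 138.5. The CBX8 promoter region spans the TSS of CBX8 with its midpoint on the far side and was not counted among them. Upstream of CBX8, on the side away from CBX2, a distal region (79810112 to 79811827) had a mean signal of 1484, or 866 per kb, and the nearest TSS of CBX8 was 9436 bp away. In mean signal it was above every promoter region of the 10 genes and at percentile 98.6 of all regions outside promoters, and per kb it was 0.46 times the CBX8 promoter. A neighbour (79808769 to 79809244) had 317, or 668 per kb. Assignment rests on the nearest TSS alone, so which gene these regions serve is not known from the table.

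The 23 distal regions belonged to 6 genes. RNF2 had 6, CBX8 had 5, EED and CBX7 had 4 each, and EZH2 and RING1 had 2 each. EZH1, SUZ12, BMI1 and CBX2 had 0, and these 4 genes are 40% of the 10, against 32.9% of all genes. These counts depend on the TSSs used. With TSSs of all gene types, noncoding ones included, CBX8 had 3, CBX7 had 2, RNF2 had 1 and the other genes had 0. The distal regions had a median signal of 83.1, against 76.8 for all regions outside promoters, and ranged from 15.3 to 1484. Of them 15 were intergenic, 7 were in introns and 1 was at a coding exon. They were poorer in GC than the promoters, with a median of 45.9% against 68.5%. The same held in general, with 44.8% for all regions outside promoters and 62.9% for the strongest promoter regions of all genes.

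The second strongest distal region was inside RNF2 (chromosome 1, 185091345 to 185092065), 45609 bp from the nearest TSS, with its middle in coding exon 3 of 7. It had a mean signal of 908 or 1261 per kb, which was 1.49 times the RNF2 promoter per kb and at percentile 97.5 per kb of all regions outside promoters. It is shown over the 200 bases at its centre (hg38, chr1:185091606-185091805, plus strand), because it covers a coding exon and, with a GC content of 40%, differs from the promoters above. The capitals mark a CCAAT box.
RNF2: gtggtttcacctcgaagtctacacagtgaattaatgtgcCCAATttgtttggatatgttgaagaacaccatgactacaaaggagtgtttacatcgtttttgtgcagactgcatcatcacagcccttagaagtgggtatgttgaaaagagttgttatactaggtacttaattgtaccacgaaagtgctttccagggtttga
The other distal regions of RNF2 had mean signals from 15.3 to 82.9.

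At EZH2 both distal regions lay over 50 kb upstream. The stronger (chromosome 7, 148940735 to 148941705) had a mean signal of 444 and held the starts of the noncoding genes ENSG00000286171 and ENSG00000286180, and the weaker (148941922 to 148942405) had 168. At CBX7 the strongest distal region by mean signal was in an intron (chromosome 22, 39145009 to 39146476), with 393 or 268 per kb, and the next was upstream (39170783 to 39171335), with 323 or 585 per kb. The latter was 1.73 times the CBX7 promoter per kb. The strongest distal region of EED (chromosome 11, 86145178 to 86146115) had 320, and those of RING1 had 37.8 and 22.4. A distal region above the promoter per kb was thus present at 2 of the 6 genes with distal regions, RNF2 and CBX7, and at 38.8% of all 11013 genes that had both kinds.

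**Figure D3:**
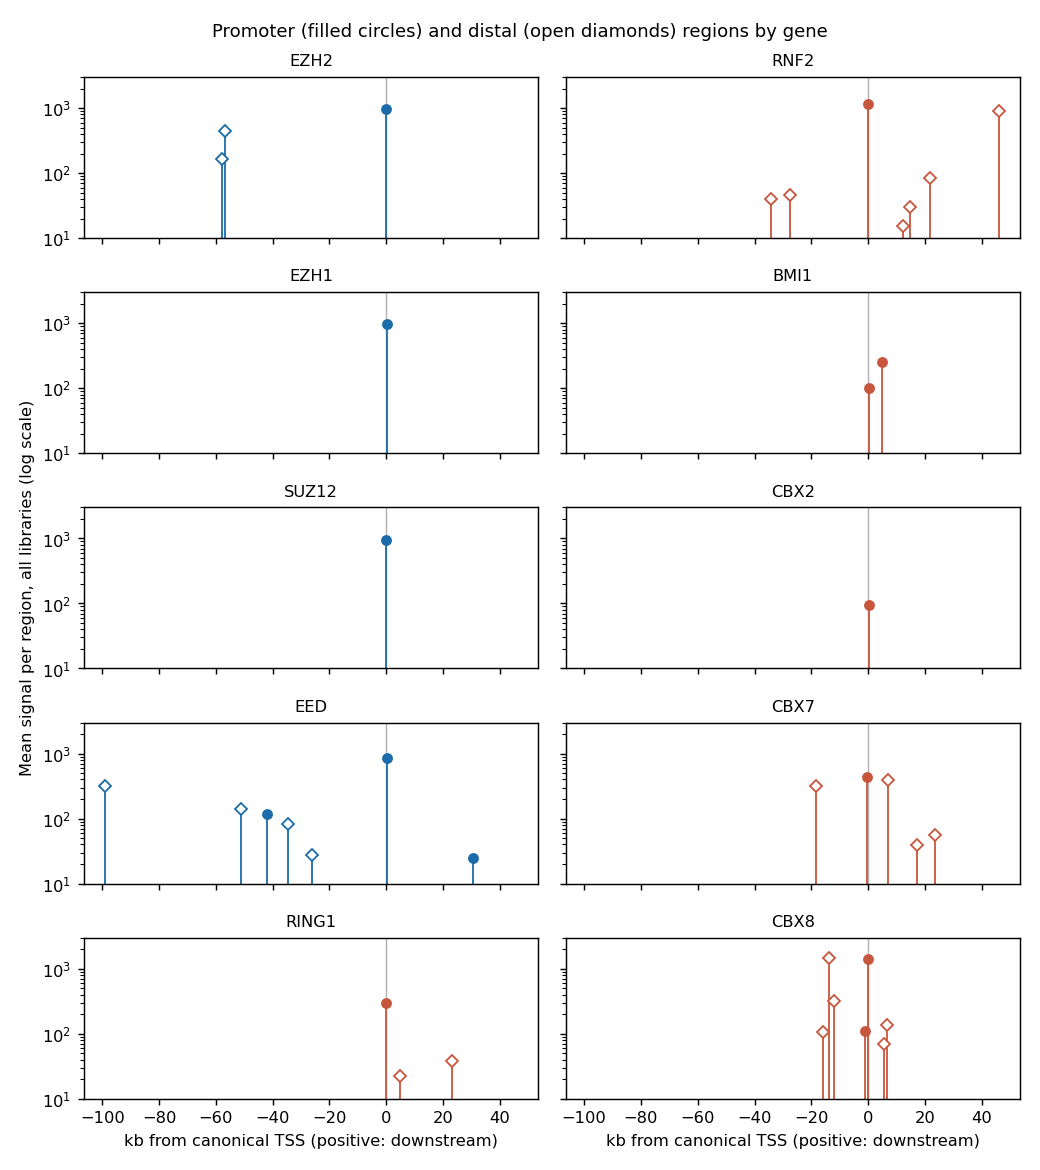
Mean signal of each of the 37 regions (vertical, log scale) by the distance of its midpoint from the canonical TSS of its gene in kb (horizontal, positive downstream), with PRC2 genes in blue and PRC1 genes in red. Filled circles are promoter regions and open diamonds distal ones. EZH1, SUZ12, BMI1 and CBX2 have promoter regions alone, and the distal regions of CBX8 and RNF2 reach 1484 and 908.

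Summed over all 37 regions, promoters held 59.4% of the mean signal, against 55.2% over all genes. The share was 76.8% for the PRC2 genes and 48.3% for the PRC1 genes. These shares rest on protein-coding TSSs and were not computed with TSSs of all gene types, which left EZH2, EED and RING1 with 0 distal regions. It was 35.1% at CBX7, 41.5% at CBX8, 50.8% at RNF2, 61.6% at EZH2, 63.7% at EED and 83.2% at RING1, and 100% at the 4 genes without distal regions.

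The promoters of the 10 genes were rich in CpG dinucleotides, which the choice of genes did not use. Their median was 98.6 CpG per kb, against 72.4 for all genes, and 8 of the 10 were in the top 25% of all genes. For the 36 other Polycomb genes with a promoter region, described below, the median was 87.6. EZH2 had the most, with 129 per kb, followed by CBX7 with 124. EZH1 and EED had the fewest, with 66.3 and 67.6. Of the ratio of observed to expected CpG, 9 of the 10 were in the top 25%, with EZH1 as the exception at 0.71. The median ratio was 0.867 for the 10 genes, 0.842 for the 36 other Polycomb genes and 0.749 for all genes.

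E2F words were searched for in the whole strongest promoter region as well. They were present at 5 genes, namely EZH2, EZH1, SUZ12, EED and CBX7, which are 4 of 4 PRC2 genes and 1 of 6 PRC1 genes, while 14.6% of the 15493 promoter regions of all genes held one. In the 300 bases at the canonical TSS they were present at 3 genes, EZH2, EZH1 and SUZ12, against 4.36% of all genes. In the 300 bases at the middle of the region they were present at 1 gene, EED, against 4.38% of all genes. A CCAAT box was in the region of 6 of the 10 genes, against 63.0% of all genes, and EZH2 and EED had 4 each. GC boxes were in all 10, against 87.4% of all genes. The NRF1 word was in EZH1 alone among the 10, against 4.96% of all genes. A wider region has more room for a match, and a match is not a bound site.

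Other genes of the Polycomb system were listed for comparison, 37 in all, and 36 had a promoter region, with EZHIP as the exception. Their median promoter signal was 615 per kb, close to the 601 of the 10 genes, and 16 of the 36 were above the median of all genes. The other PRC2 genes ranged from 158 per kb at EPOP to 2092 at PHF19, which binds methylated histone H3 in PRC2, and 5 of 9 were above the median. The other PRC1 genes ranged from 189 at SCML2 to 1376 at PHC2, and 8 of 21 were above it. Among the genes listed with the histone H2A deubiquitinase, which opposes PRC1, ASXL1 had 2850 per kb and ASXL3 had 428. Of the demethylases that oppose PRC2, KDM6B had 1233 and KDM6A had 548.

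**Figure D4:**
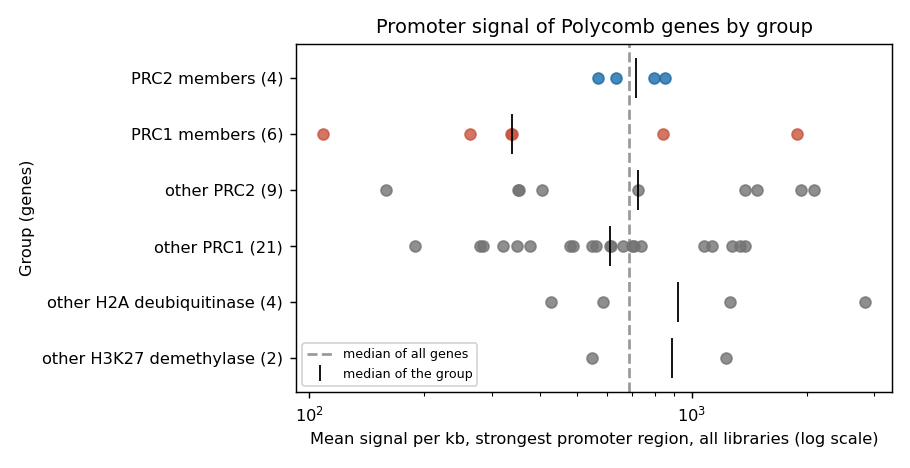
Mean signal per kb of the strongest promoter region (horizontal, log scale) of each Polycomb gene, in rows by group with the number of genes in parentheses. Vertical ticks are group medians and the dashed line is the median of all genes (686). The 4 PRC2 members cluster near it, and the other groups are spread over both sides.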

How the data were processed

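ATAC-seq of 3 senescent and 3 non-senescent libraries of EndoC-βH3 cells was used, with groups from the labels. According to the study's methods, the authors used Trim Galore for trimming and Bowtie2 for alignment of the read pairs to hg38. Duplicates and mitochondrial reads were discarded, and read ends were moved to account for the transposase. Peaks of all libraries, found with MACS2, were merged, and the authors counted the reads in them and gave the counts to DESeq2. A filter on mapping quality is not given in the sources used here. The mean signal in the authors' deposited table is the mean over all libraries of counts divided by DESeq2 size factors. The table also holds the authors' comparison of the groups (log2 fold change, its standard error, test statistic, p-value and adjusted p-value). These columns were not used, and no test was made. The table has no values per library, so the count test planned for that case was not run. The study's methods give a range of reads per sample, but the depth and precision of each single library are unknown.

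Regions were assigned to protein-coding genes of GENCODE 44 with Python 3.11.15, pandas 2.3.3, numpy 2.4.6 and pysam 0.24.0, after the assignment was tested on simulated data. The table does not say whether starts count from 0 or 1, and they were read as BED starts and printed as deposited. Percentiles are ranks among the strongest promoter regions of all 15493 genes with one. Copies of a region were sought in hg38 with blastn 2.17.0, at 90% identity over at least 50% of the region. Named were all 10 genes with their promoter regions, the strongest distal region of each, the 5 strongest distal regions of all, and the lowest and highest other Polycomb gene of each group per kb. The 2 marker genes and the weaker distal regions of EZH2, RING1 and CBX8 were named after their values were seen. Values of 1 further gene of the lists, which still enters their counts, are not reported here. Members and lists were chosen with earlier results of these data known. Alternatives were other promoter windows and distal limits, TSSs of all gene types, a minimum signal of 50, other gene values and other motif windows.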

Additional observations from a re-analysis of the deposited data

How the results depend on the processing

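No paired analysis was possible because single libraries have no columns in the table. For the same reason other count tests and normalisations, filters on low counts, a replicate block and leaving out single libraries were not run. Of 22 alternatives, 16 gave a value less than 1.5 times away from that reported. The number of promoter regions was 11 to 14, the median percentile of promoter signal 43.8 to 53.4, and the promoter share of the summed signal 58.3 to 64.0%. The range of the share does not include TSSs of all gene types, for which the share was not computed. The number of distal regions fell from 23 to 6 with TSSs of all gene types, noncoding ones included, and where the other regions were then assigned is not given. It fell to 15 when a mean signal of at least 50 was required. The median number of distal regions per gene was 2, and became 1 with a limit of 50 kb and 0 with TSSs of all gene types. E2F words were present at 5 genes in the whole region, at 3 in the 300 bases at the canonical TSS and at 1, EED, in the 300 bases at the middle of the region, and the cause was not tested.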

Other observations

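The surroundings of the 10 genes differed in how many accessible regions they held, whichever gene these were given to. Within 100 kb of the canonical TSS there were 21 regions around CBX2 and around CBX8, which share most of this stretch, at percentile 93.1 of all genes. EZH1 had 16, RING1 13, RNF2 and BMI1 12 each, EED, SUZ12 and CBX7 8 each, and EZH2 7, against a median of 9 over all genes. EZH1 thus had more regions around it than most genes and 0 distal regions of its own.

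Of the 39 TSSs annotated for the 10 genes, 32 lay in an accessible region. No such share over the TSSs of all genes is given, so this count does not set the 10 genes apart. The 7 outside were 3 of BMI1, 2 of EED, 1 of EZH2 and 1 of CBX8. The ETS word was in the promoter region of CBX8 alone among the 10, against 10.6% of all genes, and the YY1 word in 0, against 5.61%.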
